A study of Mus musculus with 6 samples.

Results

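The coreceptor genes Cd8a, Cd8b1, and Cd4 were examined for DNA methylation in CD8+ T cells of 3 genotypes. Members were the CpGs of the GRCm38 (mm10) mouse genome that lie in the body of a coreceptor gene or within 30 kb of it and that had 5 or more reads in all 6 libraries. This gave 274 of 1192344 CpGs, with 22 in the Cd8b1 window, 15 in the Cd8a window, and 240 in the Cd4 window. The Cd8b1 and Cd8a windows overlap and share 3 of their CpGs, so that they hold 34 CpGs together. The genes were picked with their methylation in these libraries already known, and their levels and p-values below are therefore given as a description.

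CD8+ T cells were enriched magnetically from lymph nodes (LNs) of C57BL/6N mice that were WT (genotype wt), carried a human STAT5B transgene (hSTAT5B +/T), or carried that transgene with the N642H mutation (hSTAT5B N642H +/T). The Vav1 promoter drives both transgenes in the whole hematopoietic system, from a single chosen mouse line each. The hSTAT5B N642H mice of the gene expression arm were diseased, so that genotype and disease cannot be told apart. The mice were 13 weeks old. Reduced representation bisulfite sequencing (RRBS) reads MspI fragments, which start at CCGG, and the methylation level of a CpG is the percentage of its reads that kept a C. There were 2 libraries per genotype. The labels number them as replicates without saying in words that they came from separate mice, so p-values measure the spread between these libraries only.

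Cd8a and Cd8b1 encode the chains of CD8, the coreceptor that binds MHC class I and brings the kinase LCK to the T cell receptor. Cd4 encodes the coreceptor for MHC class II. Thymocytes pass through a stage with both coreceptors and then silence the gene they no longer use: in the cytotoxic lineage RUNX3 acts through a silencer in the first intron of Cd4, and in the helper lineage ThPOK, the product of Zbtb7b, represses the CD8 genes. A cluster of enhancers, most of it between Cd8b1 and Cd8a, drives the CD8 genes at successive stages. Loss of methylation at the CD8 genes and methylation of Cd4 are known to accompany the choice of the cytotoxic lineage. The annotation used here holds no enhancer positions, so CpGs are placed by their distance from a gene start.

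Cd8b1 (ENSMUSG00000053044.8) lies on the + strand of chromosome 6 from 71322788 to 71337494, and Cd8a (ENSMUSG00000053977.13) follows on the same strand from 71373427 to 71379173, with 35932 bp between them. Cd4 (ENSMUSG00000023274.14) lies on the - strand of that chromosome from 124864692 to 124888221. Sequences around CpGs described below are shown first, from the + strand of GRCm38, in lower case with the CpGs that have values in capitals. The first is a stretch in intron 1 of Cd8b1 (chr6:71323028-71323259), the next runs from exon 2 over intron 2 to exon 3 of Cd8a (chr6:71374558-71374770), followed by a CpG pair upstream of Cd8a (chr6:71369814-71369872) and a CpG between the genes (chr6:71344874-71344925). Intron 1 of Cd4 is shown for contrast, with a CpG at chr6:124882807-124882858 and another at chr6:124883019-124883070.
Cd8b1 intron 1: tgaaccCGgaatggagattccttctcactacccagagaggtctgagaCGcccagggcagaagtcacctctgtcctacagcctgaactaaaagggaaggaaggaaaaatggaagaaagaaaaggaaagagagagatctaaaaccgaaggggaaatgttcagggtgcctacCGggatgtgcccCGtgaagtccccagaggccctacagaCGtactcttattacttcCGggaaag
Cd8a exon 2 to exon 3: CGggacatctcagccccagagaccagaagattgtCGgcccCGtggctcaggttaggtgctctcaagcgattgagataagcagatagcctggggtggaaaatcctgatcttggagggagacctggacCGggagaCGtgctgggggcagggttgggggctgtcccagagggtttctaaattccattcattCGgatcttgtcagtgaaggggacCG
Upstream of Cd8a: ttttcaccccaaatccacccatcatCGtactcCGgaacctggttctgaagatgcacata
Between Cd8b1 and Cd8a: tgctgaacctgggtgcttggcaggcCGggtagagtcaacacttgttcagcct
Cd4 intron 1, inner CpG: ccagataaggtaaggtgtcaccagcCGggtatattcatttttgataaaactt
Cd4 intron 1, CpG nearer the start: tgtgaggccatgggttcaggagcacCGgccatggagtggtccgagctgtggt

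These sequences show how thinly RRBS samples the loci. The Cd8b1 window holds 798 CpGs, of which 2.76% had values, the Cd8a window 645, of which 2.33% had values, and the Cd4 window 1480, of which 16.2% had values. The promoter of Cd8a, taken from 1000 bp before to 500 bp after its start, holds 25 CpGs but 0 CCGG sites, and 0 of its CpGs had reads in all 6 libraries. The promoter of Cd4 holds 21 CpGs and 1 CCGG site and also had 0 CpGs with reads in all 6 libraries, so that nothing can be said of either promoter.

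Summed over the CpGs of a library, the read counts came to between 43291086 and 67007186, where a read over several CpGs counts at each. A member CpG had a median of 18 to 30 reads per library. WT replicate 1 stood apart from the other libraries at several places in the windows. Over the fixed marker lists, as the mean level within 10 kb of each gene, it had the highest level of the T cell list (60.4% against 57.3% to 59.0%, 13 of 13 genes measured) and of the CD4 helper list (75.5% against 68.9% to 72.5%, 7 of 8). It had the lowest level of the B cell list (52.5% against 54.0% to 55.7%, 10 of 11). The list of CD8 and cytotoxic genes lay between 52.3% and 54.0% (7 of 10 genes measured) and the myeloid list between 67.6% and 70.0% (9 of 9), with WT replicate 1 inside both ranges. These means did not reflect every gene, since WT replicate 1 was the highest library at 5 of the 13 T cell genes and 3 of the 7 CD4 helper genes and the lowest at 5 of the 10 B cell genes. Results that rest on WT replicate 1 are given with and without it, and the part of other cell types in them was not tested.

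**Figure D1:**
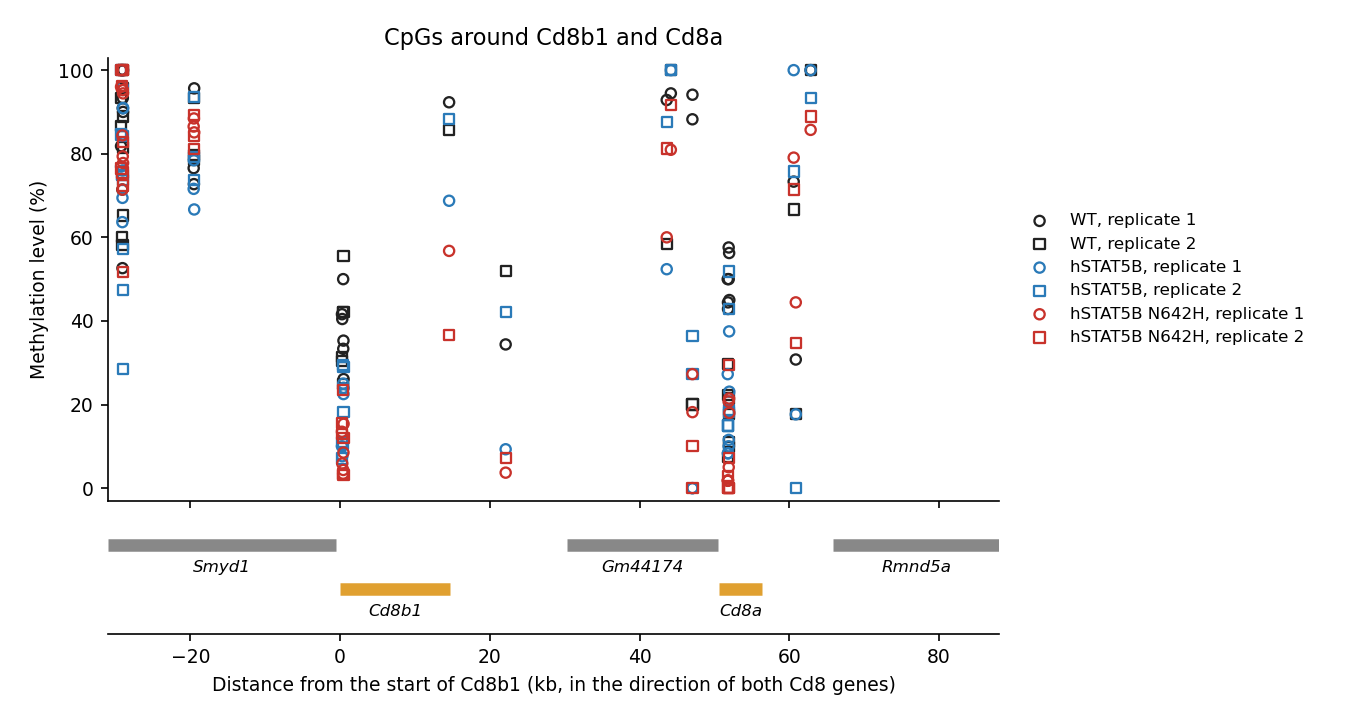
Methylation level (%) of the 34 CpGs in the Cd8b1 and Cd8a windows against the distance from the start of Cd8b1 in kb, 1 symbol per library, with genes as bars below. Low levels sit in intron 1 of Cd8b1 and in Cd8a, and in some libraries also at CpGs between and downstream of these genes. Levels upstream in Smyd1 are mostly above 50% in all libraries.

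The clearest contrast was in intron 1 of Cd8b1. There, 6 CpGs lie from 246 to 464 bp after the gene start, inside the promoter span. Their mean level was 37.8% in WT replicate 1 and 37.8% in WT replicate 2. It was 18.8% and 17.5% in hSTAT5B and 8.51% and 11.8% in hSTAT5B N642H. The genotypes did not overlap, and the level was lowest in hSTAT5B N642H, intermediate in hSTAT5B, and highest in WT.

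Counted as reads, 145 of 370 reads were methylated in WT replicate 1 (39.2%, Wilson 95% interval 34.4 to 44.3) and 126 of 349 in WT replicate 2 (36.1%, 31.2 to 41.3). In hSTAT5B, 54 of 397 (13.6%, 10.6 to 17.3) and 55 of 372 reads (14.8%, 11.5 to 18.8) were methylated, and in hSTAT5B N642H 35 of 393 (8.91%, 6.47 to 12.1) and 49 of 399 (12.3%, 9.42 to 15.9). These intervals cover counting error only, since reads carry no molecular identifiers and CpGs of 1 fragment share reads. By reads, hSTAT5B and hSTAT5B N642H lay closer together than by the mean over CpGs, because the CpGs differ in depth.

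CpG by CpG, all 6 were lower in both hSTAT5B N642H libraries than in both WT libraries, and all 6 were lower in both hSTAT5B libraries than in both WT libraries. Over all CpGs, 12.6% met that condition for hSTAT5B N642H and 8.24% for hSTAT5B. The genes were chosen on this contrast, so nothing is read from that excess. The first pair of CpGs, 246 and 287 bp after the start, was the deepest, with 102 to 140 reads per library. The first was at 41.6% and 30.5% in WT, 10% and 11.02% in hSTAT5B, and 13.5% and 15.6% in hSTAT5B N642H. At this CpG both transgenic genotypes lay below WT, with hSTAT5B N642H above hSTAT5B in both libraries.

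At the fourth CpG, 421 bp after the start, the order differed. Its level was 33.3% and 42.2% in WT, 25% and 29.5% in hSTAT5B, and 4.35% and 3.39% in hSTAT5B N642H. Over the whole stretch, 3 of the 6 CpGs were lower in both hSTAT5B N642H libraries than in both hSTAT5B libraries. Only 1, the first, was higher in both, and 2 overlapped. Over all CpGs, 13.2% were lower and 8.2% higher without overlap in that comparison. The last CpG, 464 bp after the start, was at 26.1% and 55.6% in WT, 24% and 18.2% in hSTAT5B, and 15.4% and 3.23% in hSTAT5B N642H, on 23 to 36 reads.

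**Figure D2:**
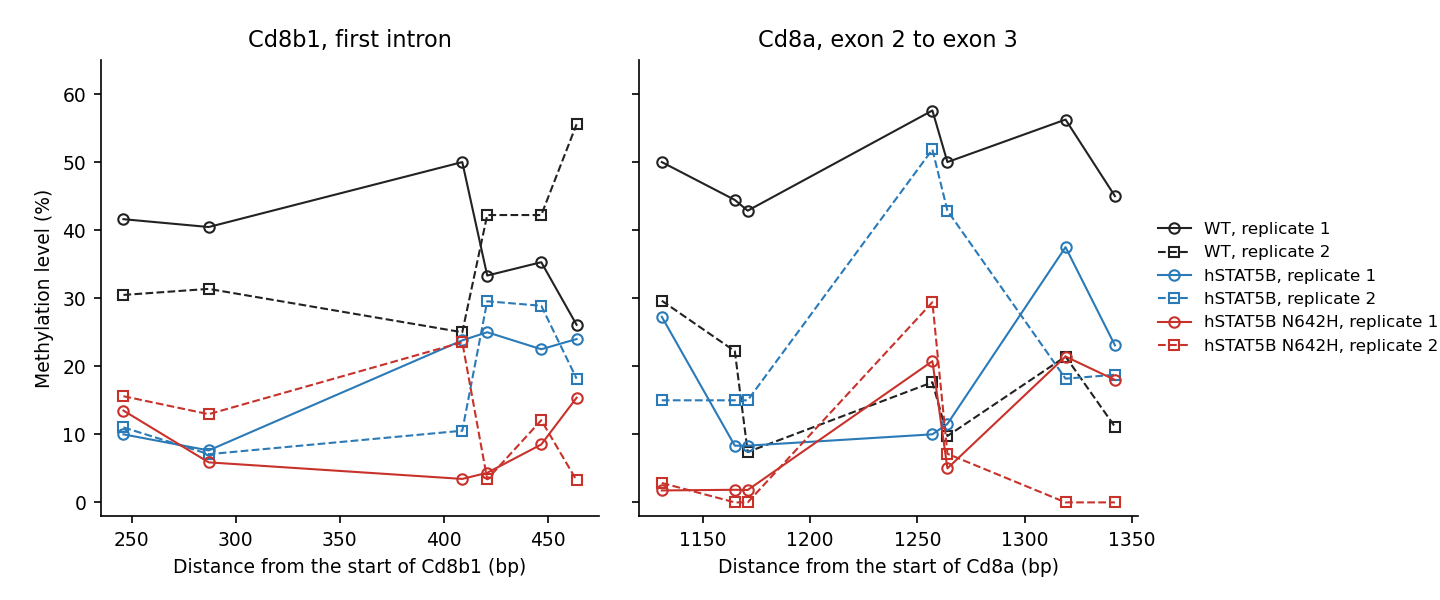
Methylation level (%) of each CpG in the Cd8b1 stretch (left, 6 CpGs) and the Cd8a stretch (right, 7 CpGs) against the distance in bp from the start of the gene, with 1 line per library. Both WT lines lie above the transgenic lines in Cd8b1, while in Cd8a the line of WT replicate 1 lies above 40% and that of WT replicate 2 mostly lies among the transgenic libraries.

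The last CpG of the Cd8b1 stretch lies inside a match to the STAT5 motif TTCNNNGAA, which reads TTCCGGGAA here and is its own reverse complement in the fixed letters, so that both strands match at the same place. It was the only match in the 300 bp around the middle of the stretch, and 7.6% of the same windows around all 130053 stretches tested held a match. The same windows around the Cd8a stretch, the CpG pair upstream of Cd8a, and the CpG between the genes held 0 matches to this motif. The RUNX motif TGTGGT, searched on both strands, had 0 matches in these 4 windows and 1 match in 2 of the 3 windows placed in intron 1 of Cd4, against a share of 17.4% of all stretch windows. No window held both motifs. A match is a description of the letters and not a measured binding site.

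Called stretches were looked for with limma over all 130053 stretches of 3 or more CpGs, on the log2 ratio of reads with a kept C to reads with a converted one. With Benjamini-Hochberg adjustment, limma called 0 stretches (0%) in each of the 3 comparisons. At an unadjusted p under 0.05 there were 9286 stretches (7.14%) for hSTAT5B N642H against WT, 8223 (6.32%) for hSTAT5B against WT, and 9197 (7.07%) for hSTAT5B N642H against hSTAT5B. A quasi-binomial model of the reads called 647 (0.497%), 3 (0.00231%), and 291 (0.224%) stretches. The count of 647 fell to 46 without WT replicate 1 and to 0 without WT replicate 2 or without either hSTAT5B N642H library, and the other 2 counts fell to 0 without any of the libraries they compare.

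For the Cd8b1 stretch, the log2 ratio differed by -2.34 ± 0.44 (SE) between hSTAT5B N642H and WT, with a limma adjusted p of 0.651, and by -1.85 ± 0.44 between hSTAT5B and WT, with a limma adjusted p of 0.765. Both thus missed the threshold in limma. In the quasi-binomial model with moderated dispersions, the adjusted p was 0.000284 for hSTAT5B N642H and 0.0272 for hSTAT5B, and this stretch was among the 3 calls of the latter comparison. The gene was picked with its methylation in these libraries known, so these p-values and calls only describe the stretch. Without 1 library the quasi-binomial adjusted p of the first comparison rose to between 0.083 and 0.686, and that of the second to between 0.84 and 0.882. The difference in level kept its size, from -26 to -29.3 percentage points for hSTAT5B N642H against WT and from -18.98 to -20.3 for hSTAT5B against WT, whichever library was left out. Between hSTAT5B N642H and hSTAT5B the level differed by -8.02 percentage points, or by -3.60 from pooled reads, and neither model called it.

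The first 4 of the 6 CpGs also fall within the promoter span of Smyd1, a gene for a muscle methyltransferase that starts just before Cd8b1 and runs the other way. Further into Smyd1, between -29258 and -19489 bp from the start of Cd8b1, 12 CpGs in its introns were highly methylated. Their mean level was 85.4% and 81.8% in WT, 80.4% and 72.7% in hSTAT5B, and 87.8% and 84.2% in hSTAT5B N642H. The low level in Cd8b1 thus did not extend over this upstream part, where both hSTAT5B N642H libraries were above both hSTAT5B libraries and overlapped with WT. Of its stretches of 3 or more CpGs, the inner one, in 3 CpGs with 15 to 173 reads each, was at 81.7% and 83.9% in WT, 72.2% and 82.2% in hSTAT5B, and 86.7% and 84.9% in hSTAT5B N642H.

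Beyond the promoter, the body of Cd8b1 had a value at 1 CpG, in the 3′ UTR in exon 6, 14558 bp after the start. Its level was 92.3% and 85.7% in WT, 68.8% and 88.2% in hSTAT5B, and 56.8% and 36.7% in hSTAT5B N642H, on 13 to 37 reads. Both hSTAT5B N642H libraries were below the other 4, and hSTAT5B overlapped with WT.

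Between the genes, 5 CpGs had values. At the CpG at -28528 bp from the start of Cd8a the level was 34.4% and 52.0% in WT, 9.30% and 42.1% in hSTAT5B, and 3.70% and 7.14% in hSTAT5B N642H, on 19 to 54 reads. The hSTAT5B N642H libraries were again the lowest, while the hSTAT5B libraries lay far apart. The next CpG, at -7017 bp, ranged from 52.4% to 92.9% with all genotypes overlapping. Its neighbour at -6466 bp was at 80.95% and 91.7% in hSTAT5B N642H and between 94.4% and 100% in the other 4 libraries, on 6 to 22 reads. The 91.7% stands for 11 of 12 reads.

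The CpG pair at -3588 and -3581 bp from the start of Cd8a, in an intron of the noncoding gene Gm44174, set WT replicate 1 apart from all other libraries. The mean of the pair was 91.2% in WT replicate 1 and 20% in WT replicate 2. It was 0% and 31.8% in hSTAT5B and 22.7% and 5% in hSTAT5B N642H, on 10 to 22 reads per CpG. WT replicate 1 was above WT replicate 2 by 30 or more percentage points at 1.26% of all CpGs. Among the other 5 libraries the genotypes overlapped, and the 0 of 18 reads at each CpG in hSTAT5B replicate 1 does not show that methylation was absent.

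Cd8a itself had values at 7 CpGs, 1131 to 1342 bp after its start, of which 3 lie in exon 2, 3 in intron 2, and 1 in exon 3. Their mean level was 49.5% in WT replicate 1 and 17.0% in WT replicate 2. It was 18.01% and 25.2% in hSTAT5B and 10.1% and 5.63% in hSTAT5B N642H. The hSTAT5B N642H libraries were the lowest, WT replicate 1 was the highest at all 7 CpGs, and WT replicate 2, at 17.0%, lay just below both hSTAT5B libraries. WT replicate 1 was above WT replicate 2 by 30 or more percentage points in 0.165% of all stretches.

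The 3 CpGs in exon 2, which codes for the extracellular part of CD8α, were near 0% in hSTAT5B N642H. The CpG 1131 bp after the start was at 50% and 29.6% in WT, 27.3% and 15% in hSTAT5B, and 1.75% and 2.86% in hSTAT5B N642H, on 11 to 57 reads. In intron 2 the values mixed more, and the CpG 1257 bp after the start was at 57.6% and 17.6% in WT, 10% and 51.9% in hSTAT5B, and 20.8% and 29.4% in hSTAT5B N642H. Of the 7 CpGs, 4 were lower in both hSTAT5B N642H libraries than in both WT libraries, beside the 12.6% of all CpGs given above. For hSTAT5B, 2 were lower in both libraries than in both WT libraries, beside 8.24% of all CpGs.

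The level of the Cd8a stretch differed by -25.4 percentage points between hSTAT5B N642H and WT, with a log2 ratio difference of -2.71 ± 0.89 (SE), an unadjusted p of 0.0208, and a limma adjusted p of 0.659. The quasi-binomial adjusted p was 0.0988, so that neither model called it. Without WT replicate 1 the difference was -9.17 percentage points, and without WT replicate 2 it was -41.6. For hSTAT5B against WT the difference of -11.6 percentage points turned to 4.59 without WT replicate 1. Between hSTAT5B N642H and hSTAT5B it was -13.8 percentage points, from -10.2 to -17.4 when any of the 4 libraries was left out, with a limma adjusted p of 0.72. In this last comparison, which does not use WT, 5 of the 7 CpGs were lower in both hSTAT5B N642H libraries, beside 13.2% of all CpGs. The gene was picked with its methylation in these libraries known, so this count and those above only describe these CpGs.

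Downstream of Cd8a, 3 single CpGs lay from 9941 to 12203 bp after the start. Their mean was 68.0% and 61.4% in WT, 72.5% and 56.4% in hSTAT5B, and 69.7% and 65.03% in hSTAT5B N642H, and the genotypes overlapped. The middle CpG, 10220 bp after the start, ran against the pattern in the genes, at 30.8% and 17.6% in WT, 17.6% and 0% in hSTAT5B, and 44.4% and 34.8% in hSTAT5B N642H. The 0% stands for 0 of 14 reads.

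Over the whole Cd8b1 window, the level was 71.2% and 68.4% in WT, 59.5% and 58.9% in hSTAT5B, and 59.4% and 59.0% in hSTAT5B N642H. Averaged in this way, the 2 transgenic genotypes did not differ beyond their spread and both lay below WT. The average joins the lower level of hSTAT5B N642H in intron 1 with its higher level upstream, and within 10 kb of the gene the levels were 44.2% and 45.6% in WT, 23.9% and 29.5% in hSTAT5B, and 13.9% and 14.3% in hSTAT5B N642H. In the Cd8a window the levels were 63.6% and 36.9% in WT, 33.7% and 42.6% in hSTAT5B, and 31.3% and 28.3% in hSTAT5B N642H. There hSTAT5B N642H was lowest, and hSTAT5B and WT overlapped.

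Of the 34 CpGs in both CD8 windows, 17 were lower and 6 higher in hSTAT5B N642H than in WT without overlap, beside 12.6% lower and 8.89% higher over all CpGs. For hSTAT5B against WT the counts were 9 and 2, beside 8.24% and 9.41%. For hSTAT5B N642H against hSTAT5B they were 12 and 7, beside 13.2% and 8.2%. As these CpGs come from genes picked for their methylation in these libraries, the counts only describe these CpGs.

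**Figure D3:**
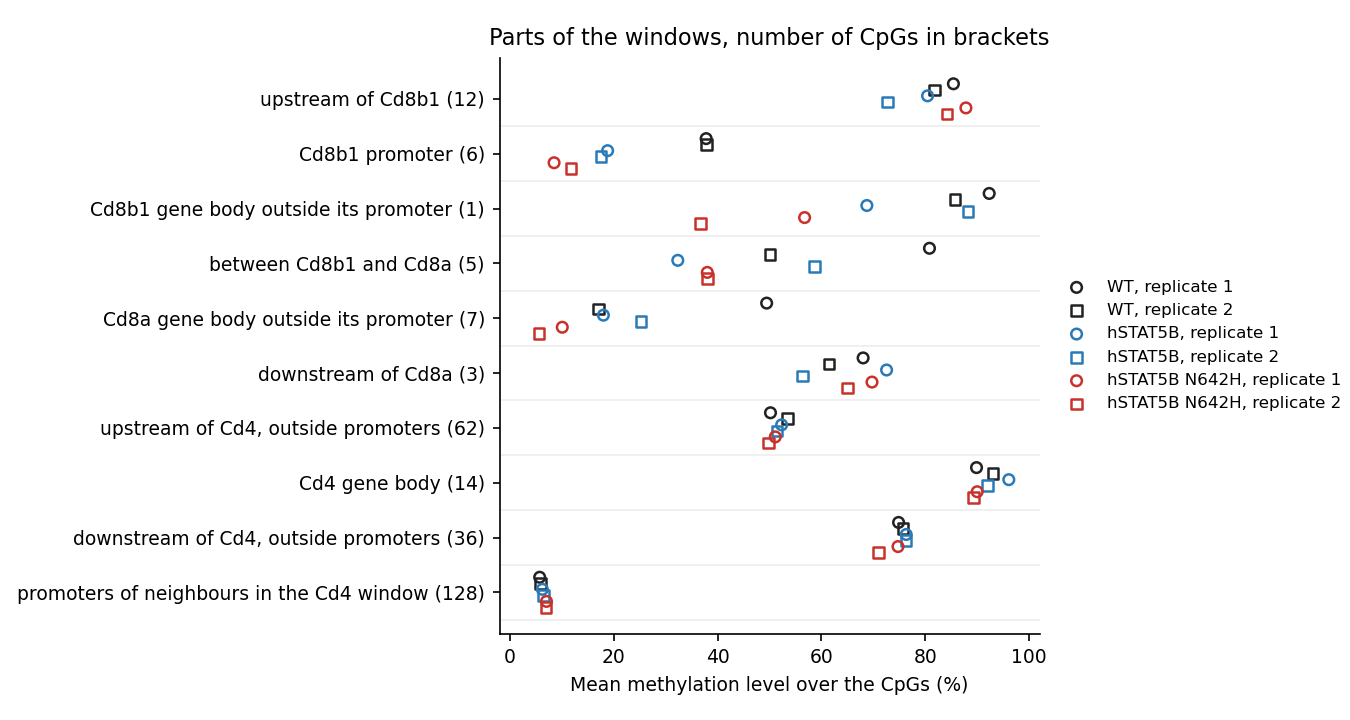
Mean methylation level (%) over the CpGs of each part of the 3 windows, with 1 symbol per library and the number of CpGs in brackets. The genotypes separate at the Cd8b1 promoter, where WT is at 37.8% in both libraries, and lie close together in all parts of the Cd4 window.

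Cd4 gave the opposite picture. The 14 CpGs of its body had a mean level of 89.9% and 93.0% in WT, 96.1% and 92% in hSTAT5B, and 90.0% and 89.3% in hSTAT5B N642H. The gene body was highly methylated in every library, and hSTAT5B N642H and WT differed by -1.80 percentage points, which is less than the gap between the WT libraries. Against hSTAT5B the difference was -4.38 percentage points, with both hSTAT5B N642H libraries below both hSTAT5B libraries. Of the 14 CpGs, 0 were lower and 1 was higher in hSTAT5B N642H than in WT without overlap, beside 12.6% and 8.89% of all CpGs. Nothing is read from counts this small.

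The CpG that was higher lies in intron 1 of Cd4, the intron that holds the silencer, at the inner CpG printed above. It was at 73.9% and 84.3% in WT, 83.3% and 89.2% in hSTAT5B, and 92.5% and 93.2% in hSTAT5B N642H, on 23 to 80 reads. The CpG nearer the start was at 100% in all 6 libraries, on 8 to 26 reads. Deeper in the same intron, a CpG at position 124882009 varied from 20% in hSTAT5B N642H replicate 2 to 100% in both hSTAT5B libraries, on 5 to 20 reads, and its neighbour 13 bp on was between 91.7% and 100%.

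At the other end of Cd4, 5 CpGs of exon 10, the last exon, had a mean of 91.3% and 88.9% in WT, 92.4% and 86.4% in hSTAT5B, and 89.7% and 93.3% in hSTAT5B N642H. In intron 8 and exon 8, 4 CpGs were at 93.4% and 94.7% in WT, 100% and 91.7% in hSTAT5B, and 89.2% and 92.7% in hSTAT5B N642H. Nowhere in the body did the mean of a stretch of 3 or more CpGs fall under 86.4%.

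**Figure D4:**
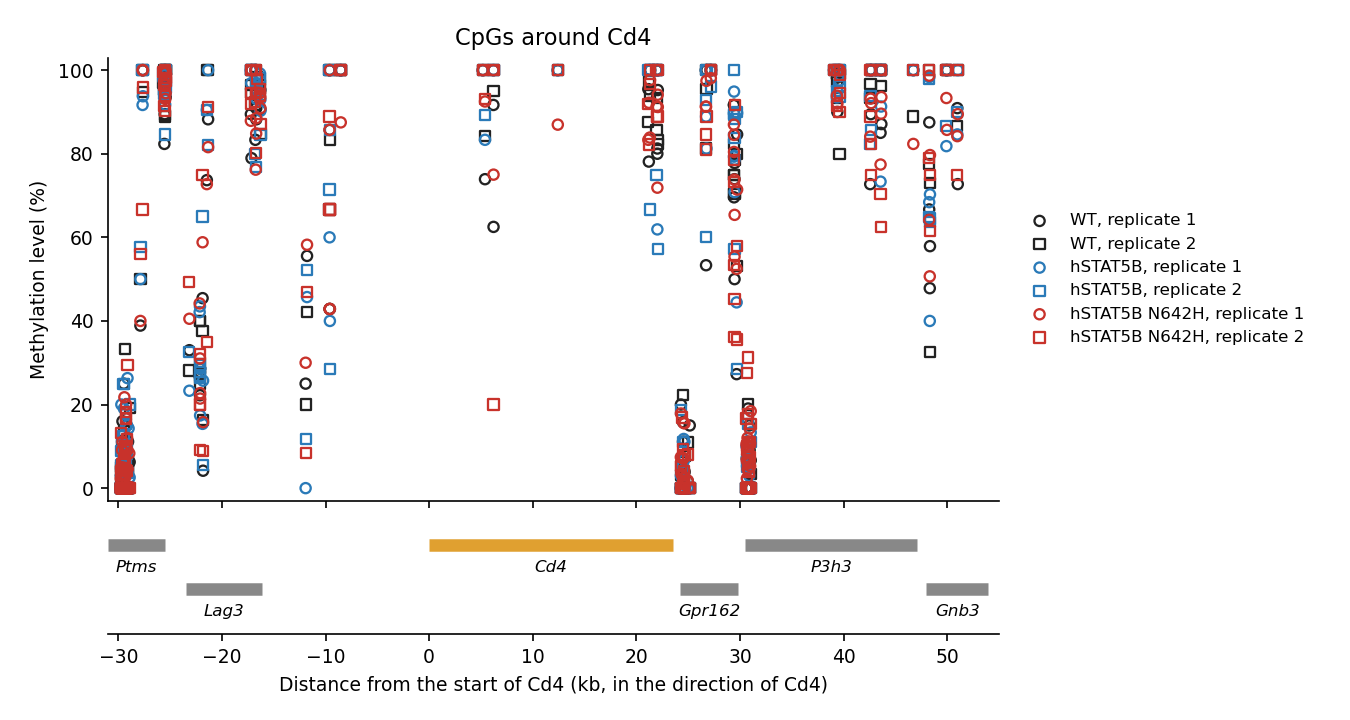
Methylation level (%) of the 240 CpGs in the Cd4 window against the distance from the start of Cd4 in kb, 1 symbol per library, with genes as bars below. Levels along Cd4 are mostly high in all libraries, with hSTAT5B N642H replicate 2 at 20% at a single CpG of intron 1. They are low at most CpGs in the promoters of Ptms, Gpr162, and P3h3.

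The Cd4 window holds other genes, and 128 of its 240 CpGs lie in the promoters of the neighbours Gnb3, P3h3, Gpr162, Lag3, and Ptms. These were at 5.74% and 5.93% in WT, 6.26% and 6.45% in hSTAT5B, and 7.04% and 6.93% in hSTAT5B N642H, so that the groups did not overlap and differed by at most 1.16 percentage points. The promoter of Ptms, which encodes the nuclear protein parathymosin, was between 1.098% and 2.39% over 60 CpGs. Outside promoters, the 62 CpGs upstream of Cd4 were between 49.8% and 53.4%. The 36 CpGs downstream of it were at 74.86% and 75.7% in WT, 76.3% and 76.3% in hSTAT5B, and 74.75% and 71.0% in hSTAT5B N642H.

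Lag3, an inhibitory receptor gene related to Cd4 and close to it, had values that ran in both directions. The single CpG in the Lag3 promoter was at 33% and 28.1% in WT, 23.3% and 32.5% in hSTAT5B, and 40.5% and 49.4% in hSTAT5B N642H. A CpG pair in a noncoding exon and an intron of Lag3 was at 24.8% and 26.9% in WT, 20.5% and 35.3% in hSTAT5B, and 37.3% and 41.9% in hSTAT5B N642H. Both places were thus highest in hSTAT5B N642H, whereas a pair in an intron was at 81.0% and 100% in WT, 95.2% and 86.3% in hSTAT5B, and 77.2% and 63.1% in hSTAT5B N642H.

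Over the whole Cd4 window, the levels were 32.5% and 33.7% in WT, 33.9% and 33.6% in hSTAT5B, and 33.4% and 32.4% in hSTAT5B N642H, and no genotype stood apart. Of its 240 CpGs, 16 were lower and 18 higher in hSTAT5B N642H than in WT without overlap, which is fewer than the 12.6% and 8.89% of all CpGs, and 51 of its CpGs were at 0% in every library. Neither limma nor the quasi-binomial model called any of the 21 stretches of the Cd4 window in any comparison. At an unadjusted p under 0.05 limma gave 0 of them for hSTAT5B N642H against WT, 2 for hSTAT5B against WT, and 2 for hSTAT5B N642H against hSTAT5B, beside 7.14%, 6.32%, and 7.07% of all stretches.

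At the edge of the rule, 0 CpGs of the Cd8b1 and Cd8a windows had 5 reads in their shallowest library. Just under that threshold, 3 CpGs of the Cd8b1 window had 4 reads there, with mean levels of 33.3% and 50% in WT, 21.4% and 25% in hSTAT5B, and 25% and 0% in hSTAT5B N642H. The downstream border of the Cd8a window, at 71409173, lies far from any CpG with values. The last CpG inside, at 71385630, was at 100% in both WT libraries, 100% and 93.3% in hSTAT5B, and 85.7% and 88.9% in hSTAT5B N642H. It had only 6 to 15 reads per library. The nearest CpG outside, at 71436944, was at 76.4% and 50% in WT, 79.1% and 61.5% in hSTAT5B, and 93.0% and 85.3% in hSTAT5B N642H.

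The coreceptor genes are controlled by a known set of factors, and 22 of their regulators were read out in the same way, over 265 stretches in the genes or within 10 kb of them. Limma called 0 of these stretches in any comparison, with 28, 14, and 21 at an unadjusted p under 0.05 for hSTAT5B N642H against WT, hSTAT5B against WT, and hSTAT5B N642H against hSTAT5B. Over all stretches, those shares were 7.14%, 6.32%, and 7.07%. The quasi-binomial model called 9 (8 lower, 1 higher), 0, and 4 (all lower) of them, beside 0.497%, 0.00231%, and 0.224% over all stretches, where its calls fell to between 0 and 46 without 1 library. The median difference over the 265 stretches was -0.31 percentage points for hSTAT5B N642H against WT and -0.28 for hSTAT5B against WT, beside -0.43 and 0.0912 over all stretches.

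Between hSTAT5B N642H and WT, 28 of the 265 stretches differed by 10 or more percentage points without overlap, beside 2.69% lower and 2.22% higher over all stretches. Of the 28, 19 were lower and 9 higher in hSTAT5B N642H. They lay at Runx3, Runx1, Gata3, Patz1, Satb1, Bcl11b, Tcf7, Lef1, Tet1, and Tet3. Bcl11b, which encodes a factor that keeps T cell identity, held 9 of them among its 37 stretches, 8 lower and 1 higher. Lef1, a factor of T cell development, held 7 among its 21 stretches, 2 lower and 5 higher. At Runx3, the factor that silences Cd4 and activates the CD8 genes, a stretch of 4 CpGs was at 84.0% and 90.3% in WT, 68.2% and 77.3% in hSTAT5B, and 66.4% and 71.0% in hSTAT5B N642H. Another Runx3 stretch ran the other way, at 25.98% and 30.7% in WT, 29.0% and 27.4% in hSTAT5B, and 48.6% and 54.3% in hSTAT5B N642H.

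At Runx1, which acts on Cd4 in immature thymocytes, 18 CpGs in a promoter were at 81.7% and 88.8% in WT, 83.0% and 77.7% in hSTAT5B, and 44.0% and 41.5% in hSTAT5B N642H. The quasi-binomial adjusted p was 8.62e-06 against WT and 0.000283 against hSTAT5B, and the limma adjusted p was 0.651 and 0.666. At Gata3, a factor of the helper lineage, 4 CpGs were at 100% and 91.7% in WT, 81.8% and 76.1% in hSTAT5B, and 41.5% and 30.8% in hSTAT5B N642H. In both stretches the hSTAT5B N642H libraries were below the other 4. Zbtb7b, which encodes ThPOK, held 6 stretches, of which 0 passed 10 percentage points without overlap in any comparison.

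For hSTAT5B against WT, 13 of the 265 stretches differed by 10 or more percentage points without overlap, beside 1.58% lower and 1.78% higher over all stretches. They lay at Runx3, Gata3, Bcl11b, Lef1, Dnmt3a, and Dnmt3b, the last pair being genes for de novo methyltransferases. Between hSTAT5B N642H and hSTAT5B there were 19, beside 2.71% lower and 1.9% higher. Bcl11b held 8 of these and Lef1 3. Runx3, Runx1, Gata3, Patz1, Dnmt3a, Dnmt3b, Tcf3, and the maintenance methyltransferase gene Dnmt1 held 1 each.

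**Figure D5:**
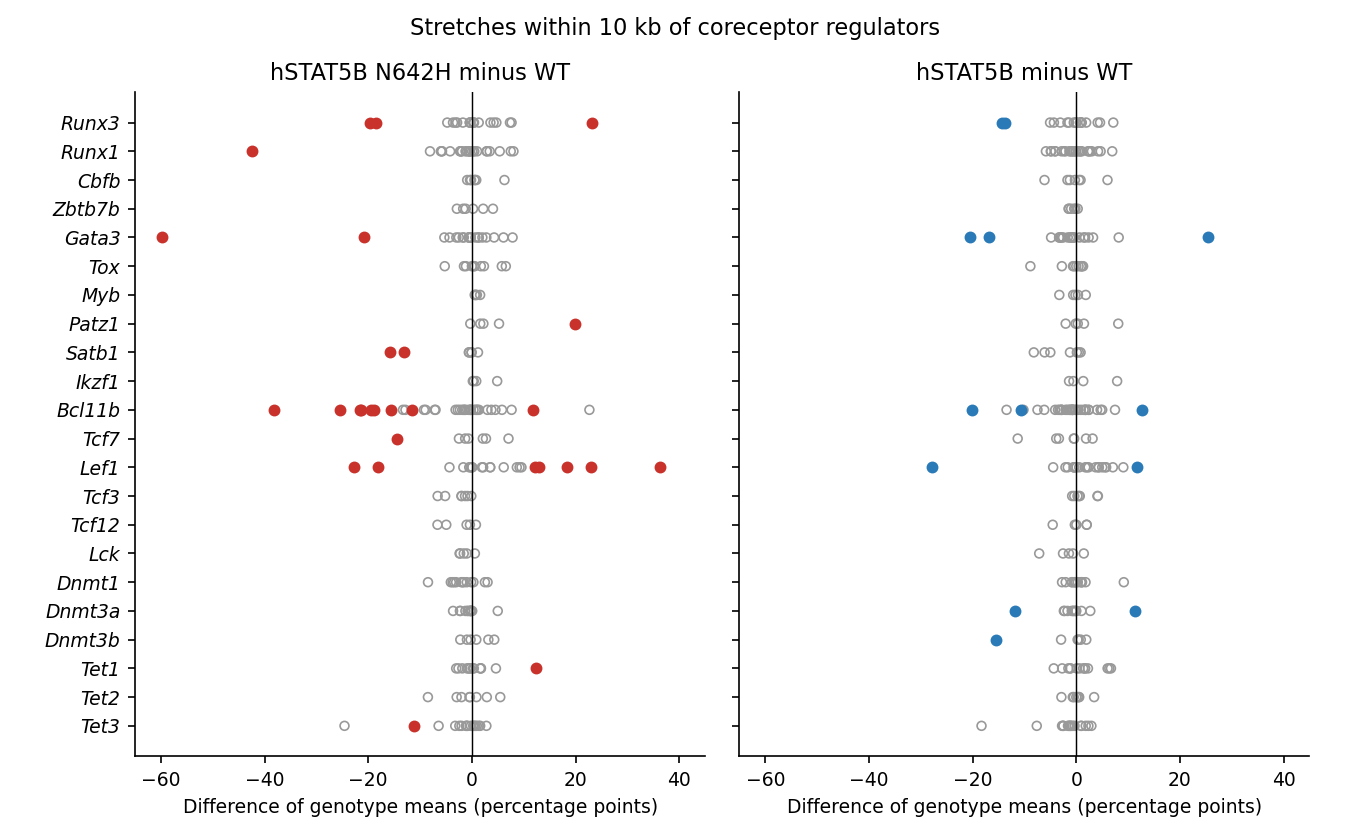
Difference of the genotype means in percentage points for each of the 265 stretches within 10 kb of 22 coreceptor regulators, for hSTAT5B N642H against WT (left) and hSTAT5B against WT (right). Filled symbols mark stretches that differ by 10 or more percentage points without overlap of the libraries, 28 on the left and 13 on the right.

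The genes whose 6 levels within 10 kb were most like those of Cd8b1 were sought among 412 protein-coding genes with 10 or more CpGs and a range of 10 or more percentage points. By root mean square distance of the centred levels, these were 5730596B20Rik (5.62 percentage points), Slc5a11 (7.26), Olfr524 (7.58), Il2rb (7.60), and Gm14419 (7.93). Il2rb, the gene for the β chain of the IL-2 receptor, was at 80.4% and 82.7% in WT, 81.2% and 80.7% in hSTAT5B, and 64.0% and 62.4% in hSTAT5B N642H. It was thus low in hSTAT5B N642H but, unlike Cd8b1, not in hSTAT5B.

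For Cd8a they were Alg8 (4.96 percentage points), Ndufc2 (5.08), Krtap31-2 (6.71), Icos (7.37), and Mapk1ip1 (7.92). All 5 had their highest level in WT replicate 1, as Cd8a did. They were chosen for levels like those of Cd8a, so this shared peak follows from the choice. Alg8 was at 49.0% in WT replicate 1 and between 8.93% and 11.8% in the other libraries, and Alg8 and Ndufc2 are neighbours on chromosome 7 whose margins of 10 kb overlap. Icos, a costimulatory receptor of helper T cells, was at 82.5% in WT replicate 1 and between 65.2% and 71.9% in the other libraries.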

How the data were processed

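DNA methylation was measured by RRBS in 6 libraries of CD8+ T cells, 2 per genotype. The authors digested genomic DNA with MspI, and the submitters' processing notes name Trimmomatic, BSMAP, and the GRCm38 (mm10) build. The deposited files give methylated and total read counts per CpG, not normalized, and a score that the authors set to the methylated share on a scale up to 1000, against which the read counts were checked (0 mismatches).

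The coreceptor genes, lists, and tests were chosen with earlier results of these data known. Levels are unweighted means over CpGs with 5 or more reads in all 6 libraries, and GENCODE M21 gave gene positions. All 1192344 CpGs are CG in GRCm38, from which sequences were read. Stretches were runs of CpGs at most 200 bp apart, split at promoters (1000 bp before to 500 bp after a start), and those with 3 or more CpGs entered limma, with 1 read added to methylated and unmethylated reads, all 6 libraries in 1 model, genotype as the only term, and Benjamini-Hochberg adjustment at 0.05. The quasi-binomial model moderates dispersions with limma. Both were tested on simulated data, with losses of methylation in hSTAT5B N642H from a high level. There limma recovered only very large changes, and the quasi-binomial model recovered smaller ones with some false calls. With 2 libraries a group, an exact permutation test, 2-sided, cannot go below a p of 0.333, so none was run.

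Items to be named were all stretches of 3 or more CpGs and single CpGs in promoters or with libraries 40 or more percentage points apart. They also took in the neighbouring genes, regulators with a stretch past 10 percentage points without overlap, and the 5 genes most like Cd8b1 and Cd8a. Not every stretch of the Cd4 window is printed. Alternatives were 1 or 10 reads, gaps of 100 bp, single CpGs, an offset of 0.5, a variance trend, only the genotypes compared, the quasi-binomial model, a replicate term, pooled reads, 10 kb margins, no promoter CpGs, and leaving out each library. The quasi-binomial model without each library was added after seeing the data.

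Models were fitted with limma 3.58.1 in R 4.3.3. Tables and plots were made under Python 3.11.15, with matplotlib 3.10.9 for drawing, scipy 1.17.1 for intervals, and pandas 2.3.3 and numpy 2.4.6 for the rest.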

Additional observations from a re-analysis of the deposited data

How the results depend on the processing

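The count of stretches called by limma stayed at 0 in all 3 comparisons with 10 or more reads, gaps of 100 bp, single CpGs, an offset of 0.5, a variance trend, only the genotypes compared, the replicate number as a block, and without each library in turn. These counts say nothing about stability, since on simulated data limma missed all but very large changes. The quasi-binomial model also found smaller ones there and made some false calls. The quasi-binomial model called 647 stretches for hSTAT5B N642H against WT, 3 for hSTAT5B against WT, and 291 for hSTAT5B N642H against hSTAT5B, and between 0 and 46 when 1 library was left out. The cause of the gap between the models was not tested. Deviations of same-numbered libraries from their genotype means correlated at -0.00693 to 0.00793 over all stretches, so the numbers showed no general pairing. Such a correlation cannot exclude a batch shared at some stretches. The replicate block called 0 stretches in each comparison.

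The level of the Cd8b1 window differed by -10.6 percentage points between hSTAT5B N642H and WT. It differed by -13.0 with 1 or more reads, -6.32 from pooled reads, -30.7 within 10 kb, and -4.19 without promoter CpGs. For hSTAT5B against WT, the difference of -10.6 became -8.16, -14.3, -18.2, and -7.20 in the same order. For hSTAT5B N642H against hSTAT5B, the difference of -0.0025 became -4.85, 8.01, -12.5, and 3.01, and -2.19 with 10 or more reads, since it averages parts that differ in sign.

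The level of the Cd4 window moved by more than the spread between replicates in 6 cases, all between -2.44 and 3.36 percentage points. For hSTAT5B N642H against WT it was 3.36 from pooled reads and -1.74 without promoter CpGs. For hSTAT5B against WT it was -0.127 with 1 or more reads. For hSTAT5B N642H against hSTAT5B it was -0.0526 with 1 or more reads, 2.20 from pooled reads, and -2.44 without promoter CpGs.

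Leaving out 1 library moved the Cd8a window between -33.8 and -7.11 percentage points for hSTAT5B N642H against WT and between -25.5 and 1.22 for hSTAT5B against WT, the value of 1.22 being without WT replicate 1. Depth limits single CpGs, and the promoters of Cd8a and Cd4 were not read.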
